A study of Drosophila melanogaster with 12 samples.

Results

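The clock genes period (per) and timeless (tim) were followed in heads of adult fruit flies (Drosophila melanogaster) of the genotype y w, which carries mutations of yellow and white, genes for the pigment of cuticle and eye. These are 2 of the 10844 genes named on the array, and every probe set with one of their symbols in the platform's gene table was taken, 4 of 13966: 143300_at for per (NCBI gene 31251), and 142154_at, 151485_s_at and 151484_i_at for tim (NCBI gene 33571). After 3 days of entrainment to 12 h of light alternating with 12 h of darkness, flies were frozen at hours 2, 6, 10, 14, 18 and 22 of 1 more such day (LD), and again at those hours when the next day was spent without light (DD). Hours count from lights-on in LD and from the time at which lights would have come on in DD, so hours 2, 6 and 10 of DD are subjective day. Each time point was 1 pool of roughly 100 to 200 sieved heads on 1 Affymetrix array, and the labels give neither the sex nor the age of the flies and name no other treatment. The 6 LD arrays and 6 DD arrays hold no repeat of an hour within a day. The p-values therefore measure the spread of single pools about fitted curves or group means, and part of that spread may be technical.

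The products of per and tim form the negative limb of the fly clock. The transcription factors CLOCK and CYCLE switch on both genes through E-box elements. PER and TIM proteins accumulate, bind each other, enter the nucleus at night and shut off CLOCK and CYCLE, and light leads to the breakdown of TIM through the photoreceptor protein cryptochrome. In the head the clock runs in a small set of brain neurons, in glia and in the photoreceptors of the eye, and whole-head RNA averages over all of them. In such bulk RNA, fewer cells of a type and less RNA per cell cannot be told apart.

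Array medians lay between 5.37 and 5.40 log2 and pairs of arrays correlated with r from 0.973 to 0.995 across probe sets, which are not independent replicates. The photoreceptor markers trp, trpl, inaC, inaD, Arr1 and Arr2 (6 measured of 9) averaged 9.08 to 9.96 log2 per array. Of the neuronal list 7 of 8 genes were measured, at 5.14 to 5.88, and of the glial list 5 of 6, at 5.52 to 5.89. Flight muscle markers (4 of 6 measured) averaged 4.65 to 5.74 in LD, with the top at hour 14, and 4.43 to 4.96 in DD. Fat body markers (5 of 6) averaged 11.87 to 12.30 in LD and 11.65 to 11.83 in DD. The ovary list (4 of 5) averaged 3.94 to 4.97, the testis and accessory gland list (5 of 5) 3.40 to 3.64, and the midgut list (5 of 5) 6.96 to 7.51. Control probe sets read the 5′ and 3′ ends of transcripts for actin, GAPDH and eIF-4a, and their difference falls when labelled RNA is truncated. This 5′ to 3′ control signal (5′ minus 3′) was lowest at DD 18 (−2.51 log2) and DD 22 (−2.45), and lay between −2.02 at LD 2 and −1.51 at DD 2 on the other arrays.

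The transcript of tim rose and fell with the hour of day, with its top early in the night. On the probe set with the highest mean, 142154_at, the RMA levels in LD were 5.58 log2 at hour 2, 5.72 at hour 6, 6.88 at hour 10, 7.80 at hour 14, 7.62 at hour 18 and 6.39 at hour 22. In DD they were 5.57, 5.56, 6.34, 7.25, 6.58 and 5.65 log2 at the same hours. The highest value of each day was that of hour 14, the 2 lowest of LD were hours 2 and 6, and those of DD were hours 6 and 2. The highest LD array was 4.68 times the lowest, and the highest DD array 3.22 times the lowest.

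A curve of 24 h fitted to both days, with a term for the regime, gave tim an amplitude (mean to peak) of 1.02 ± 0.09 log2 (SE, 12 arrays) and a peak at hour 14.9 ± 0.33, where the fitted level was 4.14 times that of the trough. Its rhythm had the second smallest p of all probe sets (limma, adjusted p = 0.00485 over 13966). In this test 3 probe sets, or 0.0215%, were called at an adjusted p under 0.05, and 1 of the 4 members was among them. The call held when each of the 12 arrays was left out in turn, with amplitudes from 0.98 to 1.12 log2 and adjusted p from 0.00219 to 0.0485. It was lost without the regime term (adjusted p = 0.0901) and with hour as an unordered factor, for which 0 probe sets were called (limma, adjusted p = 0.384 for tim, 379 of all probe sets at an unadjusted p under 0.05).

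**Figure D1:**
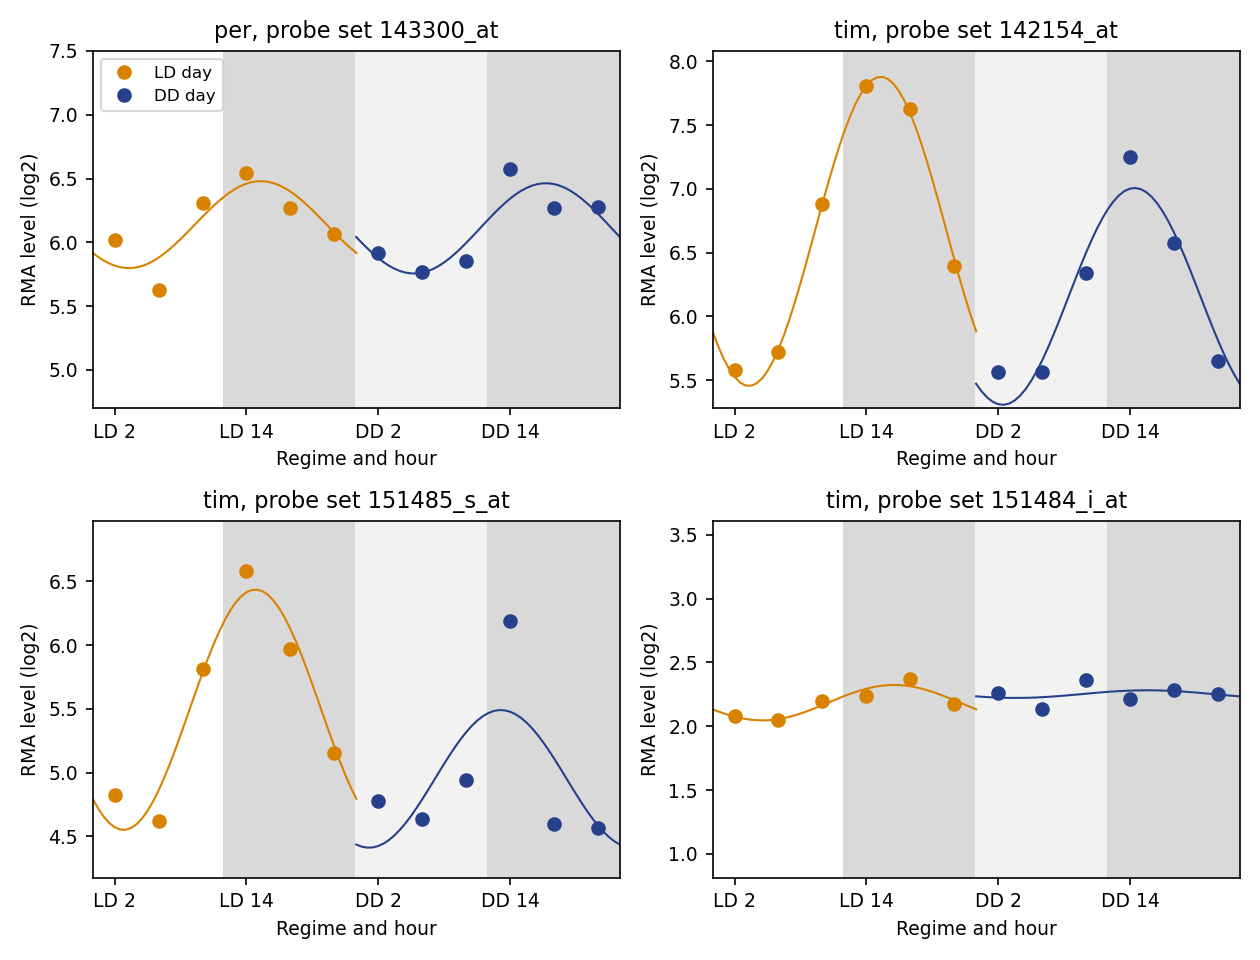
RMA levels (log2) of the per probe set and the 3 tim probe sets by regime and hour, 1 array per point, with 24 h curves fitted to each day; each panel spans 2.8 log2, and the shading marks night hours (dark) and subjective day (light). The points of 142154_at run from 5.56 to 7.80 log2 and those of per from 5.63 to 6.57, whereas 151484_i_at stays between 2.05 and 2.37.

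The next tim probe set, 151485_s_at, had its top at hour 14 in each day as well. Its levels in LD were 4.83, 4.62, 5.81, 6.59, 5.97 and 5.15 log2 from hour 2 to hour 22. In DD they were 4.78, 4.64, 4.94, 6.19, 4.60 and 4.57 log2. In LD the probe set was above 5.8 at hours 10, 14 and 18, and in DD only hour 14 was above 5. Between DD 14 and DD 18 it went down 3.01-fold, where 142154_at went down 1.60-fold. Over both days the amplitude was 0.72 ± 0.16 log2 with a peak at hour 14.2 ± 0.84, which did not pass (limma, unadjusted p = 0.00280, adjusted p = 0.820). The 2 tim probe sets correlated over the 12 arrays with Pearson's r = 0.907 and Spearman's rho = 0.720, a description of points that share their arrays. The fitted peak of 151485_s_at came 0.73 ± 0.70 h before that of 142154_at, an interval (95%) of −2.36 to 0.89 h that includes 0.

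The tim probe set 151484_i_at carried little signal. Its 12 values lay between 2.05 and 2.37 log2, and 0.0931% of the probe sets tested, itself included, had means that low. In LD the values were 2.08, 2.05, 2.20, 2.24, 2.37 and 2.17 log2 by hour, and in DD they were 2.26, 2.14, 2.36, 2.22, 2.28 and 2.26. The amplitude of 0.08 ± 0.04 log2 did not pass (limma, unadjusted p = 0.148, adjusted p = 0.967). The files do not say which exons or transcripts each probe set covers, so the position of the 3 tim probe sets in the gene was not analysed here.

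The transcript of per moved over a smaller range. Its levels in LD were 6.02 log2 at hour 2, 5.63 at hour 6, 6.31 at hour 10, 6.55 at hour 14, 6.27 at hour 18 and 6.06 at hour 22. In DD they were 5.91, 5.77, 5.86, 6.57, 6.27 and 6.28 log2. Hour 14 was the highest and hour 6 the lowest in each day. The highest array was 1.89 times the lowest in LD and 1.75 times in DD. In DD the 3 night values all lay above the 3 subjective day values, a pattern that 13.6% of all probe sets showed in DD. In LD the groups overlapped, since hour 10 (6.31) lay above hours 18 and 22.

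The 24 h curve of per over both days had an amplitude of 0.34 ± 0.07 log2 (SE, 12 arrays) and a peak at hour 16.3 ± 0.82, where the fitted level was 1.59 times that of the trough. It did not pass adjustment over all probe sets (limma, unadjusted p = 0.00251, adjusted p = 0.807), and its p ranked 42 among all probe sets. An unadjusted p under 0.05 was reached by 654 probe sets, or 4.68%, and by 3 of the 4 members, per, 142154_at and 151485_s_at. For per the unadjusted p stayed under 0.05 when any 1 array was left out (0.00190 to 0.00920), with amplitudes from 0.29 without LD 6 to 0.38 without LD 18. By size of amplitude tim ranked second of all probe sets on 142154_at and 13 on 151485_s_at, and per ranked 225, against a median amplitude of 0.07 log2 over all probe sets.

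The shape of the daily course was tested with a term of 12 h added to the 24 h curve. For per the 12 h term had an amplitude of 0.16 ± 0.06 log2 (limma, unadjusted p = 0.0637, adjusted p = 0.861). Over 18 alternatives it lay between 0.14 and 0.19 log2, with adjusted p of 0.412 or more. Its smallest unadjusted p (limma), 0.00918, came without DD 10. The term was 0.14 ± 0.09 for 142154_at (limma, adjusted p = 0.887). It was 0.058 to 0.22 log2 over the alternatives and 0.070 without DD 18 and DD 22. For 151485_s_at the term was 0.38 ± 0.12 (limma, unadjusted p = 0.0328, adjusted p = 0.861), and 0.26 without DD 18 and DD 22. The 12 h term was called for 0 probe sets (0%) by limma, and for 794, or 5.69%, its unadjusted p was under 0.05. The steps between neighbouring hours show where the courses were steep. On 142154_at the largest increase in LD fell between hours 6 and 10 (2.24-fold) and in DD between hours 10 and 14 (1.88-fold). On per it fell between hours 6 and 10 in LD (1.60-fold) and between hours 10 and 14 in DD (1.64-fold). The largest decrease of 142154_at was between hours 18 and 22 in each day, 2.35-fold in LD and 1.90-fold in DD.

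The fitted peak of per came after that of tim over both days. In the main fit the margin was within the error for 142154_at and just outside it for 151485_s_at. Over 20 alternatives the margin for 142154_at lay between −0.014 and 2.84 h. The margin for 151485_s_at was smaller in the 2 alternatives read for it. Over both days the lag of per behind 142154_at was 1.35 ± 0.91 h (SE, 12 arrays), with a 95% interval of −0.74 to 3.44 h. With LD alone it was −0.014 ± 1.36 h and with DD alone 2.84 ± 1.07 h, with intervals of −4.35 to 4.32 h and −0.57 to 6.24 h from 6 arrays each. With the 5′ to 3′ control signal included as a covariate the lag was 0.35 ± 1.03 h. It was 0.73 h without DD 22, 0.80 h without DD 10 and 0.58 h without both DD 18 and DD 22. It was longer than in the main fit without LD 10 (1.95 h), LD 18 (1.71 h) or DD 14 (1.67 h). Measured hours were 4 h apart, and the highest array was hour 14 for both genes in both days. Against 151485_s_at the lag of per was 2.08 ± 0.88 h (0.054 to 4.11 h). With the control signal as a covariate the peaks of per and 151485_s_at lay closer, at hours 15.9 ± 1.07 and 15.2 ± 0.86. Without DD 18 and DD 22 they were at hours 16.1 ± 0.96 and 15.5 ± 0.60. No interval for the lag was fitted in these 2 settings.

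Rhythms in each regime were fitted as separate curves with 1 estimate of the spread. In LD the curve of tim on 142154_at had an amplitude of 1.21 ± 0.10 log2 and peaked at hour 15.3 ± 0.30, with peak over trough at 5.36, and it passed (limma, adjusted p = 0.00863), as the only member among 7 called probe sets (0.0501%). The call was lost without LD 14 (adjusted p = 0.112), LD 18 (0.0550) or LD 22 (0.0768), with amplitudes from 1.20 to 1.21 log2. In DD the amplitude was 0.85 ± 0.10 log2 (peak over trough 3.25), with the top at hour 14.4 ± 0.43 (adjusted p = 0.0931), where 0 probe sets (0%) were called and 1609 (11.5%) had an unadjusted p under 0.05. Without LD 2 the DD curve of tim passed (adjusted p = 0.0445) with the same amplitude. Without DD 18 and DD 22, the arrays with the lowest 5′ control signal, its amplitude was 0.98 log2 (limma, adjusted p = 0.0404). The fitted peak, at hour 16.2, then lay beyond the last DD hour left, hour 14.

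The curves of per had amplitudes of 0.34 ± 0.10 log2 in LD (peak at hour 15.3 ± 1.17) and 0.35 ± 0.10 in DD (peak at hour 17.3 ± 1.12). Neither passed (limma, adjusted p = 0.795 and 0.349). Their unadjusted p were 0.0277 and 0.0228, and 5.66% of all probe sets had one under 0.05 in LD and 11.5% in DD. With 1 array left out the unadjusted p (limma) reached 0.155 in LD (without LD 14) and 0.0961 in DD (without DD 6). Without DD 18 and DD 22 the amplitude of per in DD was 0.57 ± 0.18 log2. On 151485_s_at the tim amplitudes were 0.94 ± 0.21 in LD (adjusted p = 0.568) and 0.54 ± 0.21 in DD (adjusted p = 0.492). Its DD amplitude depended on the arrays used, with 0.13 log2 without DD 14 and 1.02 log2 without DD 18 and DD 22. In the latter fit the peak, at hour 17.5, also lay beyond the DD hours left.

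Whether the rhythm differed between the regimes was tested on the difference itself. The amplitude of 142154_at was −0.36 ± 0.13 log2 in DD minus LD, and its fitted peak was −0.89 ± 0.52 h in DD minus LD. With the control signal as a covariate the peaks were at hours 15.3 in DD and 15.4 in LD. Without DD 18 and DD 22 they were at hours 16.2 and 15.3. The DD peak then lay beyond the last DD hour left, hour 14, so that fit cannot decide which peak came first. The difference curve, LD against DD, had an amplitude of 0.43 ± 0.13 log2 and did not pass (limma, unadjusted p = 0.0308, adjusted p = 0.451). For per the amplitudes differed by 0.01 ± 0.15 log2 and the difference curve had 0.18 ± 0.15 (adjusted p = 0.864). The difference curve of per ranged from 0.085 without DD 10 to 0.30 without LD 6 with 1 array left out, also moving by over 1.5 times without LD 2 (0.27), LD 10 (0.11) or DD 14 (0.29), and was 0.39 without DD 18 and DD 22. Over all probe sets 0 (0%) were called in this test (limma) and 1391, or 9.96%, had an unadjusted p under 0.05. With the 5′ to 3′ control signal included as a covariate the difference curve of tim had 0.22 ± 0.17 log2 (limma, unadjusted p = 0.422) and that of per 0.15 ± 0.16. With 1 array left out the difference curve of tim ranged from 0.34 without DD 2 to 0.56 without DD 14. Without DD 18 and DD 22 it had 0.34 ± 0.08 (limma, unadjusted p = 0.0122, adjusted p = 0.522), with the limit on the DD hours given above.

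Hour by hour, the levels of tim in DD lay close to those of LD in the early day and below them from hour 10 to hour 22. On 142154_at, DD minus LD was −0.010 log2 at hour 2, −0.16 at hour 6, −0.55 at hour 10, −0.55 at hour 14, −1.05 at hour 18 and −0.75 at hour 22. It was lower in DD at 6 of 6 hours, as were 2.39% of all probe sets. The gap at hour 18, 2.07-fold, was the widest, and 0.745% of probe sets differed as far or farther at that hour in either direction. The hours of the 2 widest gaps, 18 and 22, are those of the DD arrays with the lowest 5′ to 3′ control signal (−2.51 and −2.45 log2). On 151485_s_at the differences were −0.048, 0.016, −0.87, −0.39, −1.37 and −0.58 log2, again with the widest gap at hour 18. For per they were −0.11, 0.14, −0.45, 0.028, −0.0010 and 0.22 log2, so that per was lower in DD at 3 of 6 hours and its widest gap was at hour 10.

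**Figure D2:**
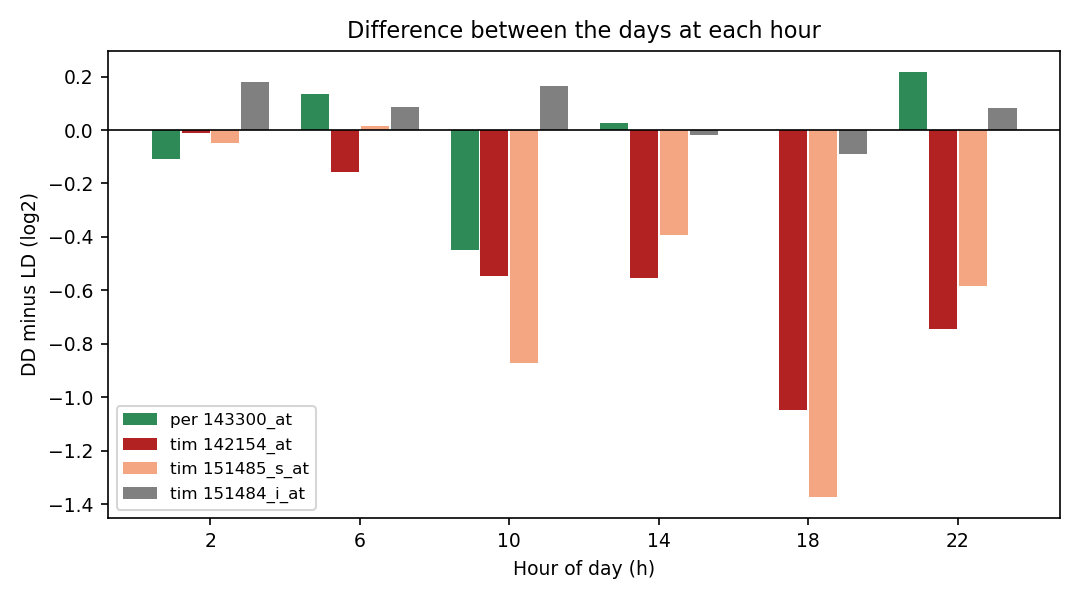
DD minus LD (log2) at each hour of day for the 4 probe sets, 1 array per regime and hour, so the bars carry no error. The tim bars of 142154_at and 151485_s_at lie at or near 0 at hours 2 and 6 and reach −1.05 and −1.37 at hour 18, while per lies on either side of 0.

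The mean level over the day was compared between regimes, a comparison in which light and the order of the days cannot be told apart. For tim on 142154_at the mean was 6.67 ± 0.94 log2 in LD and 6.16 ± 0.69 in DD (SD, n = 6 each, with the daily rhythm inside the SD). With the rhythm fitted, DD minus LD was −0.51 ± 0.13 log2, a 1.42-fold difference, and did not pass (limma, unadjusted p = 0.00193, adjusted p = 0.376), where 21 probe sets (0.15%) did and 6.82% had an unadjusted p under 0.05. On 151485_s_at it was −0.54 ± 0.22 log2 (limma, adjusted p = 0.676). It was −0.68 without DD 2, −0.35 without DD 18, −0.22 without DD 18 and DD 22 and −0.37 with the control signal as a covariate. For per the means were 6.14 ± 0.31 in LD and 6.11 ± 0.31 in DD, a difference of −0.030 ± 0.10 log2 (adjusted p = 0.967). With 1 array left out the difference of 142154_at lay between −0.61 without DD 2 and −0.44 without DD 18 (limma, adjusted p of 0.0809 or more). For 142154_at the difference was −0.30 log2 without DD 18 and DD 22 (limma, adjusted p = 0.999). It was −0.37 with the 5′ to 3′ control signal included as a covariate (adjusted p = 0.478). For per the values in these settings were −0.029 and −0.066. The flight muscle list averaged 5.19 ± 0.38 log2 in LD and 4.64 ± 0.22 in DD (SD, n = 6 each). The fat body list averaged 12.02 ± 0.17 and 11.73 ± 0.07. The genes within each list were uneven. DD minus LD was −1.17 log2 for Act88F and −0.92 for up, but −0.012 for TpnC4 and −0.086 for fln. It was −1.19 for Lsp2, but −0.11, −0.20 and −0.066 for Yp1, Yp2 and Yp3, and 0.10 for apolpp. The part of these lists in the difference of tim was not tested.

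Levels at night and by day were also compared as groups of 3 arrays. The 3 arrays of a group are different hours, so the error of this fit holds the daily course within the group. A difference that did not pass here therefore does not show that night and day were alike. Night minus day was 1.21 ± 0.48 log2 for 142154_at in LD and 0.67 ± 0.48 in DD, and 0.31 ± 0.17 and 0.53 ± 0.17 for per. None of these 4 differences passed (limma, adjusted p = 0.835, 0.508, 0.910 and 0.127). The tests called 0.00716% of probe sets in LD and 0.938% in DD, with 5.76% and 18.2% at an unadjusted p under 0.05. For 142154_at in DD the difference was 1.61 ± 0.80 log2 with the control signal as a covariate. Without DD 18 and DD 22 it was 1.43, with DD 14, the peak hour, as the only DD night array. The step of tim was −0.54 ± 0.68 log2 in DD minus LD and that of per 0.22 ± 0.23, and neither passed (limma, adjusted p = 0.735 and 0.676, with 299 probe sets, or 2.14%, called and 18.9% at an unadjusted p under 0.05). With the 5′ to 3′ control signal included as a covariate the step of tim was 0.57 ± 1.01 log2 and that of per 0.37 ± 0.38. That signal was lowest at DD 18 and DD 22, both night arrays. The covariate therefore overlaps the DD night, and the errors are wider with it. Without DD 18 and DD 22 the steps were 0.21 for tim and 0.42 for per. There DD 14 alone stood for the DD night against 3 LD night hours, so the sign for tim cannot be read from that fit. At night, the mean of 142154_at was 7.27 ± 0.77 log2 in LD and 6.49 ± 0.80 in DD (SD, n = 3), and by day it was 6.06 ± 0.72 and 5.82 ± 0.45. DD minus LD was −0.78 ± 0.48 log2 at night (limma, adjusted p = 0.438) and −0.24 ± 0.48 by day (adjusted p = 0.895). With the control signal as a covariate, under the same overlap, the night value was 0.073 ± 0.75 log2. Without DD 18 and DD 22 it was −0.024, but this sets DD 14, the peak hour, against the mean of 3 LD night hours. At hour 14 itself DD minus LD was −0.55 log2. These contrasts were added after the values were seen. They called 2.08% of probe sets at night and 0.0358% by day, with 17.8% and 9.42% at an unadjusted p under 0.05.

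Other genes of the clock loop were read from a list of 34 genes by role, each by its brightest probe set. Of the 28 measured, 1 was called for a daily rhythm over both days and 5 had an unadjusted p under 0.05, 3 of them peaking in the night hours and 2 by day. Among all 10844 named genes 3 were called and 512 had an unadjusted p under 0.05, 213 peaking in the night hours and 299 by day. The median amplitude of the list was 0.14 log2, against 0.07 over all named genes. The called gene was vri, whose product represses Clk, with 0.86 ± 0.06 log2 and the fitted top at hour 13.7 (limma, adjusted p = 6.04e-04).

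Among the transcription factors, Pdp1, an activator of Clk, had an amplitude of 0.25 ± 0.05 log2, peaking at hour 15.7 (adjusted p = 0.795). Clk itself, named after its values were seen, had 0.42 ± 0.10 with a peak at hour 1.62 (adjusted p = 0.891), and its levels correlated with those of 142154_at at r = −0.840 over the 12 arrays. For light input and protein turnover, Usp8, a deubiquitinase, had 0.86 ± 0.12 at hour 13.3 (adjusted p = 0.142) and cry, the photoreceptor through which light acts on TIM, had 0.41 ± 0.08 at hour 7.37 (adjusted p = 0.764). These amplitudes did not pass over all probe sets.

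Genes of kinases, phosphatases, nuclear import and the translation of per were measured too, and none was called. The PER kinases CkIalpha and dco (doubletime) had 0.14 ± 0.07 and 0.11 ± 0.11 log2, and none of the 2 kinases and 3 phosphatase subunits measured reached an unadjusted p under 0.05. Pp1-87B, a catalytic subunit of the phosphatase PP1, had 0.11 ± 0.08, and wdb, a subunit of the phosphatase PP2A, had 0.07 ± 0.06. The nuclear import genes Kap-alpha1 and Tnpo had 0.14 ± 0.07 and 0.16 ± 0.10. For the translation of per, tyf had 0.25 ± 0.09 (unadjusted p = 0.0551) and its partner Atx2 had 0.35 ± 0.21. The neuropeptide gene Pdf, a clock output, had 0.10 ± 0.06.

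The paralog of tim, timeout, had small fitted amplitudes. It was measured by 4 probe sets with amplitudes between 0.04 and 0.15 log2, fitted peaks between hours 19.4 and 23.1 and unadjusted p from 0.120 to 0.718 (limma, adjusted p of 0.967 or more). Their Pearson's r with 142154_at over the 12 arrays lay between −0.342 and −0.066. The difference between the curves of tim and timeout was not tested.

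**Figure D3:**
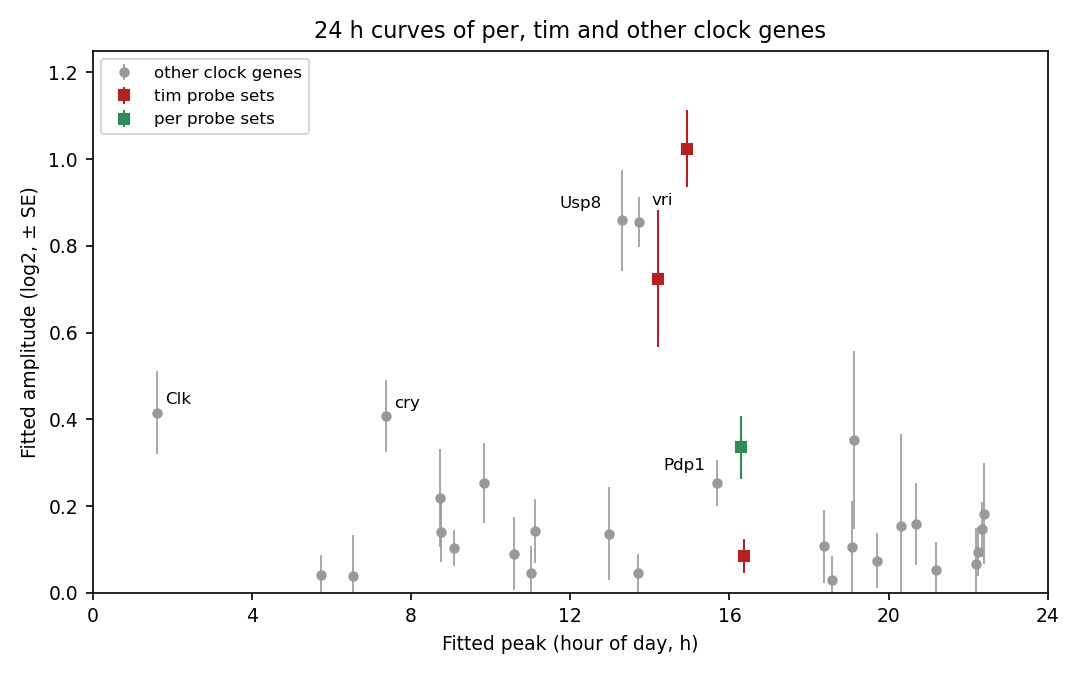
Fitted amplitude (log2, ± SE) against fitted peak hour for the tim probe sets, the per probe set and 28 other clock genes, each over 12 arrays. The bright tim probe set stands at 1.02 log2 and hour 14.9, near vri (0.86, hour 13.7) and Usp8 (0.86, hour 13.3), per stands at 0.34 and hour 16.3, and Clk and cry have fitted peaks at hours 1.62 and 7.37.

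Likeness of daily course was measured by Pearson's r over the 12 arrays, as a description of points that share arrays and, for rhythmic genes, the 24 h cycle. Beside its own probe set 151485_s_at, the probe sets most like 142154_at were those of Slob (r = 0.872), whose product binds the Slowpoke potassium channel, vri (0.856), Usp8 (0.853), rgr (0.819), CG3270 (0.815) and cyr (0.808). The rgr value came from a probe set that was not the brightest of its gene. Of these 6 genes, vri was the only one called for a rhythm over both days, and their fitted peaks lay between hours 13.3 and 16.1. The probe set of per ranked 20 among all probe sets in likeness to tim, with r = 0.756 and Spearman's rho = 0.734. Within LD alone r was 0.853 and within DD alone 0.707, over 6 arrays each.

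Among probe sets with 1 gene symbol, those most like per were of Rab32 (r = 0.912), a small GTPase of pigment granule transport, CG30020 (0.868), cyr (0.860), Fbxl7 (0.842), tbrd-3 (0.836) and CG32264 (0.835, also not the brightest probe set of its gene). They ranked 2, 3, 4, 6, 8 and 9 among all probe sets, per itself being 1. Their amplitudes lay between 0.05 and 0.22 log2 with peaks from hour 15.8 to hour 17.5, and none was called (limma, adjusted p = 0.967 for each). In likeness to per, 142154_at ranked 57 and 151485_s_at (r = 0.745) ranked 64. Only cyr stood in both sets of 6.

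**Figure D4:**
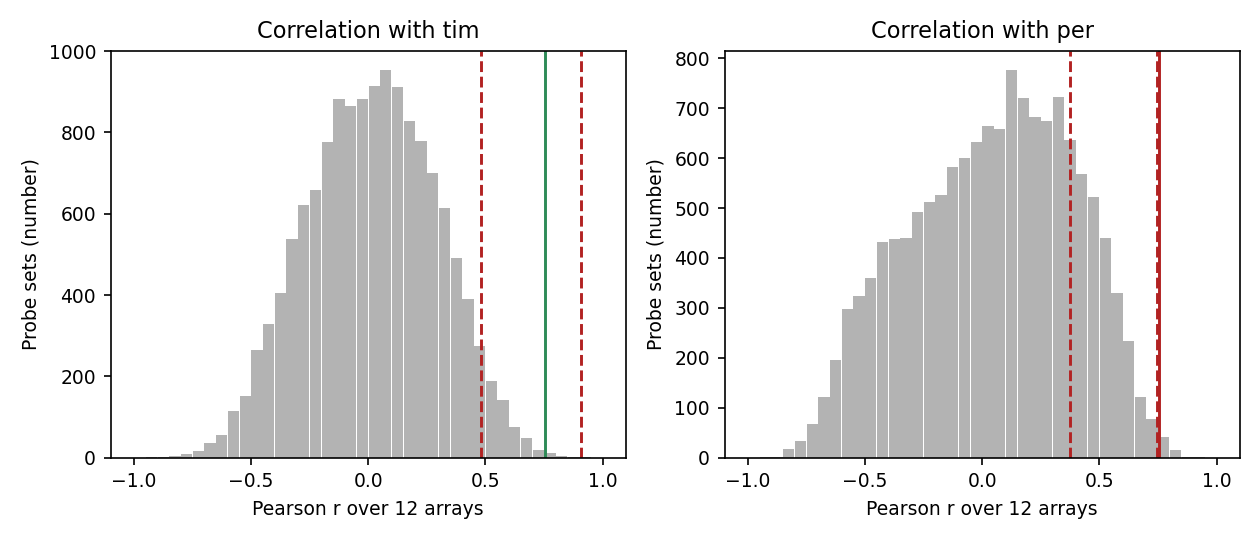
Number of probe sets by Pearson's r over the 12 arrays with tim on 142154_at (left) and with per (right), in bins of 0.05. Lines mark per (green, 0.756) and the other tim probe sets (red dashed, 0.907 and 0.483) on the left, and 142154_at (red, 0.756) and the other tim probe sets (red dashed, 0.745 and 0.373) on the right.

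The genes on either side of per and tim were read as well, with the order of genes taken from RefSeq (Release 6 plus ISO1 MT) and the 3 nearest protein-coding genes on each side chosen after the members' values were known. Of these 12 neighbours 10 were measured, and none was called for a rhythm over both days. Next to tim, CG15414 had an amplitude of 0.14 ± 0.03 log2, peaking at hour 10.9 (limma, unadjusted p = 0.00317, adjusted p = 0.820). CG17593 had 0.35 ± 0.12 at hour 10 (unadjusted p = 0.0475). Whether these peak hours differ from that of tim was not tested.

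Next to per, the gene dyw (daywake), named after its values were seen, overlaps per in the RefSeq annotation. Its levels in LD were 5.38, 4.80, 6.10, 5.23, 4.52 and 4.22 log2 from hour 2 to hour 22. In DD they were 4.37, 4.13, 4.19, 4.44, 4.45 and 4.27. The LD values of hours 2 to 18 all lay above the highest DD value, and hour 22 of LD lay among the DD values. The mean was −0.73 log2 in DD minus LD, given as a description without a p-value, and r with per over the 12 arrays was 0.281. Its 24 h curve over both days had 0.29 ± 0.17 log2 and did not pass (limma, unadjusted p = 0.273, adjusted p = 0.967). Which strand or exons the probe sets of per and dyw cover was not analysed here.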

How the data were processed

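The authors deposited log2 values from RMA (robust multi-array average), per the submitters' processing notes, which give no version; it is not known whether other arrays entered the normalization. The log2 values of 12 arrays were used as deposited, and 44 of 14010 probe sets, all controls, were left out. Of the 13966 tested, 12443 had 1 gene symbol, 327 several and 1196 none in the platform annotation. Tests used limma 3.58.1 in R 4.3.3 (lmFit, eBayes) with Benjamini-Hochberg adjustment over all 13966 and a threshold of 0.05. The models were a 24 h cosine and sine with regime, separate curves per regime, an added 12 h term, and 4 groups of 3 arrays for day and night. Lags have delta-method errors. The code was tested on simulated data. Precision is limited by having 12 arrays.

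The brightest probe set stood for a gene. The text names every per and tim probe set, the clock genes called for rhythm and the 2 of each role with the smallest p, and the 6 genes most like each member by Pearson's r. The members, gene lists and markers were chosen with earlier results of these data known. Alternatives were filtering, normalization, the eBayes prior, single arrays left out, the 5′ to 3′ control signal, and other model terms; leaving out DD 18 and DD 22 was chosen after seeing the data. No sequences were analysed here.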

Additional observations from a re-analysis of the deposited data

Results flagged for a closer look

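On the tim probe set 151485_s_at, the DD 14 array stood apart from the other 5 DD arrays. Its level was 6.19 log2, the next highest was 4.94 at DD 10, and the gap was 0.771 of the range of the 6 values. Each of the 4 probe sets was checked in each regime, which gave 8 groups of 6 arrays. Chance alone marks about 1 in 20 groups when the 6 arrays are repeats of 1 condition. In LD the same measure for this probe set was 0.313, and for 142154_at in DD it was 0.399. The 6 arrays of a group are 6 different hours, so the rate of 1 in 20 need not hold here. The check reads the daily course as well as the spread between arrays.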

How the results depend on the processing

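For tim on 142154_at, the rhythm over both days kept its call under 18 of 20 alternatives. The call was lost without a regime term (limma, adjusted p = 0.0901) and with hour as a factor (adjusted p = 0.384), where the number of probe sets called was 0. Because the hours are balanced, the 24 h component stays at 1.02 log2 in both, and only the test changes. Leaving out 1 array at a time gave 1.20 to 1.24 log2 for tim in LD and 0.69 to 1.02 in DD. The tim amplitude in DD was 0.98 log2 without DD 18 and DD 22 (limma, adjusted p = 0.0404), from a curve whose peak lay beyond the DD hours left. The night minus day step of tim, DD minus LD, turned to 0.57 ± 1.01 log2 with the control signal, which overlaps the DD night, as a covariate. It was 0.21 without DD 18 and DD 22, where DD 14 was the only DD night array. The lag of per behind tim was 0.35 h with the covariate, −0.014 h in LD alone and 2.84 h in DD alone. The mean level of per in DD minus LD lay between −0.081 and 0.027 log2 with 1 array left out, and its sign turned without LD 2, LD 10, LD 14, DD 10 or DD 18. Tests of per stayed on the same side of the threshold under every alternative run. The causes of these shifts were not tested. With hour of day as a replicate block, the mean level difference was −0.51 log2 for tim (limma, adjusted p = 0.549) and −0.030 for per (adjusted p = 0.969). The deviations of same-hour arrays correlated at −0.44 to 0.15. The labels name no pairing of these arrays beyond the hour, and such correlations cannot decide whether the pools shared more.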
